A study of Mus musculus with 24 samples.

Results

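The 49 genes described here run the mammalian cell cycle. They were listed by name and function, without a threshold on any measured value: the D and E cyclins with Cdk4, Cdk6 and Cdk2 (8 genes), the A and B cyclins with Cdk1 (5), the CDK inhibitors (6), the pocket proteins (3), the E2F factors (5), the replication licensing factors (10), a mitosis group (7), the Cdc25 phosphatases (3) and the Myc factors Mycn and Myc (2). All 49 were among the 49705 genes of the table, and all 49 passed the filter that left 21005 genes for testing. The RNA came from optic vesicle (OV) organoids grown from 1 mouse embryonic stem cell line, Rx-GFP K/I EB5, in which GFP is knocked into the Rax locus, so that GFP reports Rax, a transcription factor of the eye field and retinal progenitors. On day 0, 4500 cells were plated per low-adhesion well, Matrigel was added to 2% on day 1, and each library was made from live single cells sorted out of 24 pooled organoids. There were 3 libraries in each of 8 groups: days 0, 1, 2 and 3, not sorted on GFP, and the GFP-negative and GFP-positive cells of days 4 and 5. By the study's methods, the samples of days 4 and 5 were split on GFP, so both gates of a day came from the same organoids. The gates are imperfect models of fate, since weakly fluorescent cells counted as GFP-negative, any stronger signal counted as GFP-positive, and day 3 already held a few GFP-positive cells.

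Cyclins are regulatory subunits that switch on cyclin-dependent kinases (CDKs). In G1, D cyclins with Cdk4 or Cdk6, and E cyclins with Cdk2, phosphorylate the pocket proteins Rb1, Rbl1 and Rbl2 and so release the E2F factors, which turn on genes for DNA synthesis. CDK inhibitors of the Cip/Kip family (Cdkn1b, Cdkn1c) block several cyclin-CDK complexes, whereas those of the Ink4 family (Cdkn2a, Cdkn2b, Cdkn2c, Cdkn2d) block Cdk4 and Cdk6. Embryonic stem cells are known for a short G1, and progenitors of the early neural plate and retina are likewise known to divide fast.

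Library totals lay between 39849100 and 51587500 normalized counts, and the mitochondrial share between 1.73% and 6.04%. Day 0 replicate 1 and Day 3 replicate 2 were both near that upper end (6.04% and 6.003%), and the Day 3 libraries, the reference of the day 4 comparisons, ranged from 1.75% to 6.003%. The part of this share in those comparisons was not tested beyond leaving out each library. Day 0 replicate 1 stood apart in other ways. Its rank correlation with its replicates was as low as 0.953 where no library outside day 0 was below 0.979 with any of its own, and in it 13 members were over 1.5 times the mean of the other two day 0 libraries and 15 were under that mean divided by 1.5. Changes from day 0 are therefore also given without that library, and its part in the other comparisons is felt through the spread, which was estimated over all 24 libraries. The labels of the gates matched their markers. The summed level of 6 eye field genes was 46122 to 47969 in day 4 GFP-positive and 8924 to 10908 in day 4 GFP-negative libraries, and 56174 to 59109 against 9143 to 9760 on day 5. Markers of other cells also differed between the gates. On day 5 all 10 pluripotency markers and all 8 mesendoderm markers were lower in the GFP-positive gate by the limma test, as were 6 of 7 endothelial and 7 of 8 surface ectoderm and neural crest markers. The summed pluripotency level was 7899 to 9313 in GFP-negative and 633 to 831 in GFP-positive libraries of day 5, and the summed mesendoderm level 5294 to 6224 against 292 to 502. On day 4 these sums were 15865 to 18952 against 1475 to 2893 and 7371 to 11059 against 358 to 798. The pluripotency sum had been 160139 to 194804 on day 0 and 40517 to 52306 on day 3. Of the 10 neuron markers, 5 were higher and 5 lower in the GFP-positive gate on day 4, and 1 higher and 9 lower on day 5. Their summed level was 5877 to 6901 in GFP-negative and 7074 to 8297 in GFP-positive libraries of day 4, and 4821 to 5583 against 3602 to 4020.3 on day 5. Tubb3 alone had a mean of 1820 in GFP-negative and 3645 in GFP-positive libraries of day 4. The part of these markers' cells in any difference between gates or days was not tested. In bulk RNA, fewer cells using a gene and less RNA per cell cannot be told apart.

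Most of the machinery moved little. The highest group mean of a member was 1.84 times its lowest group mean in the median, against 2.60 times over all genes tested, and 38 members had a mean of at least 1000 normalized counts over the 24 libraries. The group of the highest mean was day 0 for 13 members, day 5 GFP-positive for 11 and day 1 for 10, and 20 members had their lowest mean in day 5 GFP-negative cells. Without Day 0 replicate 1 these numbers were 12, 12, 12 and 20, and 6 of the 13 members that peaked on day 0 still did so. Over the 11 comparisons below, 112 results of single members passed the test (limma with Benjamini-Hochberg adjustment over all genes, adjusted p under 0.05), and 12 members passed in none: Ccnd1, Ccna1, Ccnb2, E2f7, E2f8, Mcm2, Pcna, Cdc6, Cdt1, Plk1, Bub1 and Cdc25a. Of the 112 results, 56, in 23 members, stayed past the test in every other setting tried but the study's stricter thresholds, including the removal of any library of the groups compared or of Day 0 replicate 1. They are called settled below.

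**Figure D1:**
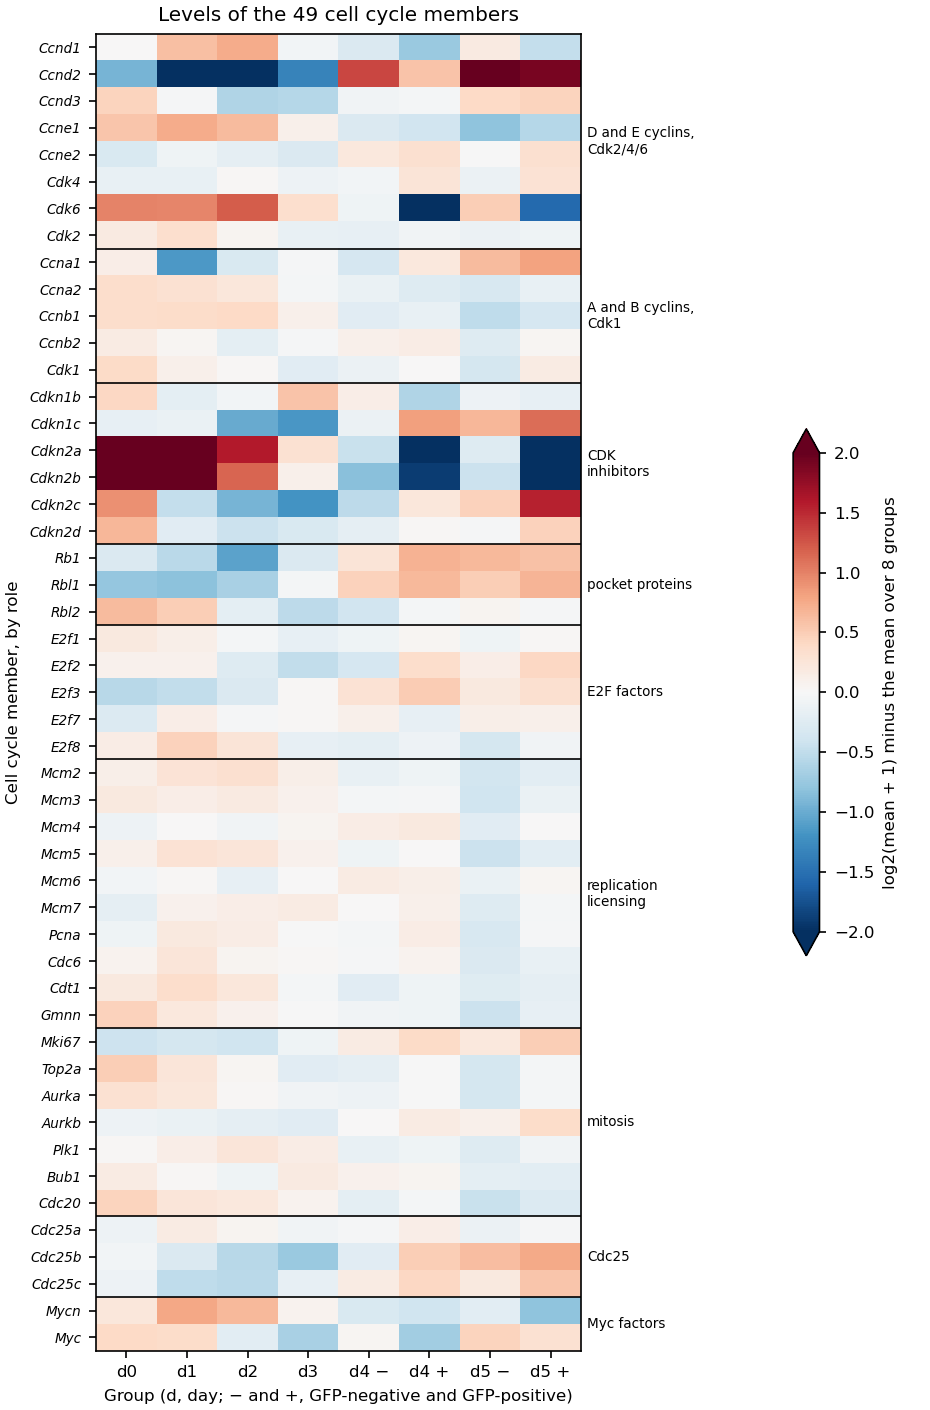
Level of each of the 49 members (rows, grouped by role) in the 8 groups (columns, d for day, − and + for the GFP gates), as log2 of the mean of 3 libraries plus 1, minus that gene's mean over the 8 groups. Colours saturate at 2 either way. The widest ranges belong to Ccnd2, Cdk6 and the CDK inhibitors Cdkn2a, Cdkn2b, Cdkn2c and Cdkn1c. The replication licensing and mitosis rows stay near white, with most of their lowest means in day 5 GFP-negative cells.

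From day 0 to day 3 more members fell than rose. Between days 0 and 1, 1 member rose (Mycn) and 3 fell (Ccnd2, Cdkn2c and Cdkn2d), where 10.0% of all genes passed (5.23% higher and 4.79% lower). Between days 1 and 2, 2 fell (Ccnd3 and Cdkn1c) and 0 rose in limma (0 at an unadjusted p under 0.05), where 16.6% of all genes passed (9.03% higher and 7.54% lower). Between days 2 and 3, 2 rose (the pocket protein genes Rb1 and Rbl1) and 5 fell (Ccne1, Cdk6, Ccnb1, Cdkn2a and Mycn), where 14.4% of all genes passed (7.46% higher and 6.99% lower). Over the whole interval, day 3 against day 0, 3 members rose and 19 fell, against 21.1% and 22.6% of all genes and 43.6% in either direction. The 3 that rose were Rbl1, E2f3 and Mcm7. Without Day 0 replicate 1 these counts were 5 and 23, where 24.0% of all genes rose and 26.1% fell, and under quantile normalization 5 and 13. When limma was fitted to the compared groups alone, 8 of the calls over the whole interval were kept, all of them falls, with 23.9% of all genes past the test, and all 4 calls of the first step were lost, with 0.167% of all genes past it. The totals of the single steps moved with single libraries. The 4 of the first step became 7 without Day 0 replicate 1 (where 14.0% of all genes passed) or 3 and 12 without Day 0 replicate 2. The 2 of the second step became 0 without Day 2 replicate 3, 1 without Day 1 replicate 2 or 3 or Day 2 replicate 1, 4 without Day 0 replicate 2 and 7 without Day 0 replicate 1 (24.3% of all genes). The 7 of the third step became 3 without Day 2 replicate 1 or 3 or Day 3 replicate 2 or 3, 4 without Day 2 replicate 2 and 16 without Day 0 replicate 1 (24.2% of all genes). The split into rises and falls became 2 and 3 for the first step under quantile normalization and 3 and 3 for the third with every library scaled to the same total.

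The day 4 gates were each compared with day 3. Against day 3, 13 members rose and 7 fell in GFP-positive cells, where 17.1% of all genes rose and 20.9% fell (37.9% in either direction). In GFP-negative cells 5 rose and 3 fell, where 18.5% of all genes passed (9.49% higher and 9.01% lower). These comparisons share the day 3 libraries. The total for GFP-negative cells was 4 without Day 4 GFP-negative replicate 1, 5 without Day 4 GFP-negative replicate 2 or Day 3 replicate 2 or 3, and 16 without Day 0 replicate 1 (26.4% of all genes), and that for GFP-positive cells was between 16 and 23. When every library was scaled to the same total, 9 rose and 0 fell in the GFP-negative cells by limma, and under quantile normalization 8 and 1, so the falls there depended on the scaling. From day 4 to day 5, 2 members rose and 1 fell in GFP-positive cells (Cdkn2c, Myc and Mycn, where 9.80% of all genes passed, 4.57% higher and 5.24% lower), a total of 6 without Day 0 replicate 1 (15.3% of all genes), and 2 and 0 under equal totals. In GFP-negative cells 3 rose (Cdkn1c, Cdkn2c and Cdc25b) and 3 fell (Ccne1, Mcm4 and Mcm6), where 10.2% of all genes passed (5.72% higher and 4.45% lower). That total of 6 was 1 without Day 5 GFP-negative replicate 3, 2 without replicate 2 of either GFP-negative group, 3 without replicate 1 of either, 3 also without Day 1 replicate 3, Day 2 replicate 3, any Day 4 GFP-positive library or Day 5 GFP-positive replicate 1, and 20 without Day 0 replicate 1 (17.9% of all genes). Its split was 4 and 1 under quantile normalization and 5 and 0 under equal totals. From day 0 to day 5 GFP-positive cells, 11 rose and 15 fell, and 61.4% of all genes passed (29.3% higher and 32.1% lower). Without Day 0 replicate 1 they were 12 and 20, and 64.7% of all genes passed. Equal totals gave 17 and 9 and quantile normalization 16 and 11. The shifts that they made to a gene's log2 fold change were 0.14 and 0.16 in the median over all genes.

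The thresholds of the study (adjusted p under 0.001, and over 1.5 on the log2 scale either way) were passed by 6 members. By day 3 they were Cdkn2a, Cdkn2b and Cdkn2c, where 12.0% of all genes passed. Cdkn2a no longer did so without Day 0 replicate 1 or any Day 3 library, nor Cdkn2b without Day 3 replicate 3. Against day 3 they were Cdk6, Cdkn1c, Cdkn2a and Cdkn2b in day 4 GFP-positive cells (10.7% of all genes) and Ccnd2 in day 4 GFP-negative cells (2.88%). Of these, Cdkn2b was lost without any of 4 libraries and Ccnd2 without any of 5. Between the gates they were Cdk6 and Cdkn2a on day 4 (3.96%) and these with Cdkn2b on day 5 (5.01%), where Cdkn2a on day 4 was lost without Day 4 GFP-positive replicate 3 and Cdkn2b on day 5 without any of the 6 libraries compared. From day 0 to the last GFP-positive group they were Ccnd2, Cdk6, Cdkn2a and Cdkn2b (26.2%), each kept without any library of these groups. No member passed them between days 0 and 1 (0.738% of all genes), 1 and 2 (1.47%) or 2 and 3 (1.00%), or from day 4 to day 5 in the GFP-positive (1.49%) or GFP-negative gate (1.27%).

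**Figure D2:**
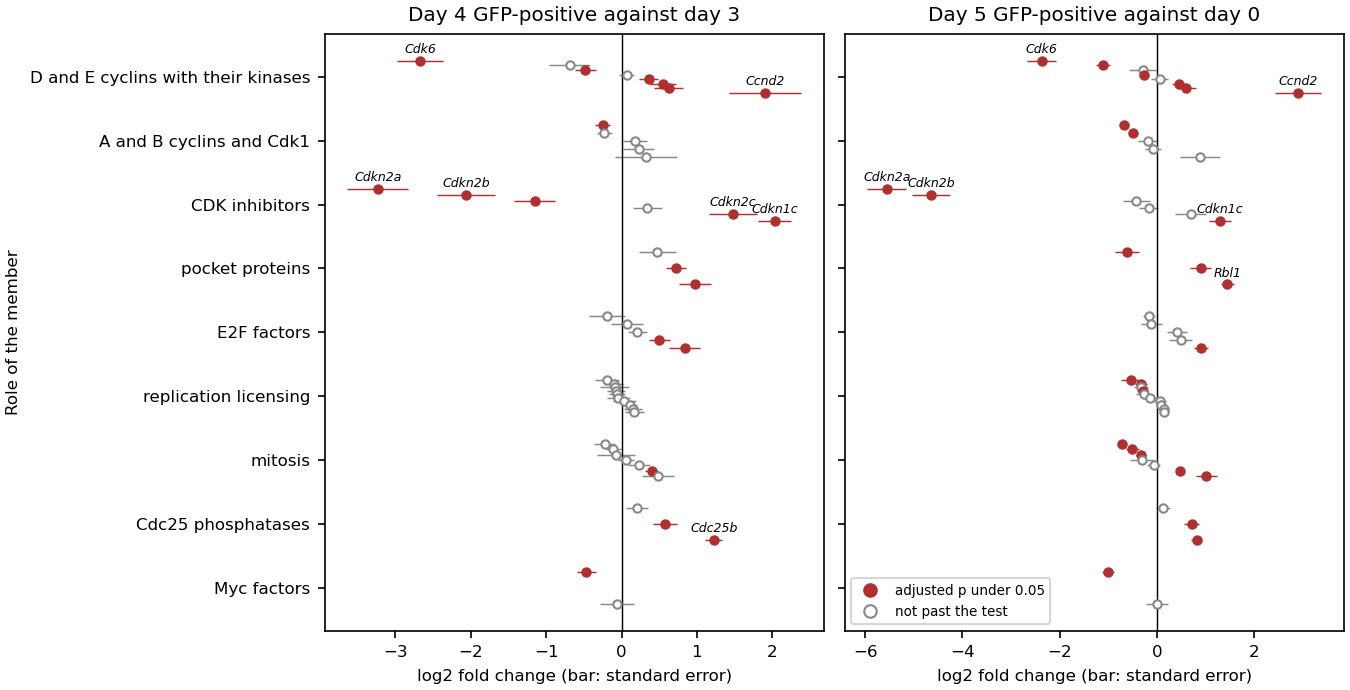
Log2 fold change of every member, by role, for day 4 GFP-positive against day 3 (left) and day 5 GFP-positive against day 0 (right). Each point is 1 gene with its standard error, filled where the adjusted p was under 0.05, and members beyond 1.2 either way are named. The wide rows are the D and E cyclins with their kinases and the CDK inhibitors, and no replication licensing member is filled on the left.

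Among the D cyclins, which couple outside signals to Cdk4 and Cdk6, Ccnd2 (ENSMUSG00000000184, chr6:127125162-127152193, minus strand of GRCm38) changed most. It was counted at 513, 1185 and 655 in the 3 day 0 libraries, 739, 94.6 and 139 on day 1, 477, 324 and 266 on day 2 and 587, 627 and 549.9 on day 3. It then stood at 2726, 3808 and 4755 in GFP-negative and 1892, 2156 and 2625 in GFP-positive libraries of day 4, and at 12367, 8855 and 8208 and 6467, 4755 and 5403 on day 5. All 12 libraries of days 4 and 5 were above all 12 earlier ones. Against day 3 it rose by 1.91 ± 0.48 (SE, limma adjusted p = 0.00295) on the log2 scale in GFP-positive cells and by 2.64 ± 0.48 (SE, limma adjusted p = 0.000401) in GFP-negative cells, both settled. From day 0 to the last GFP-positive group the rise was 2.90 ± 0.48 (SE, limma adjusted p = 1.87e-05), and 2.64 without Day 0 replicate 1. The mean was higher in the GFP-negative gate on both days, and the gate differences of −0.73 (95% interval −1.73 to 0.26) on day 4 and −0.81 (−1.80 to 0.18) on day 5 did not pass the test. The fall from day 0 to day 1 (−1.78 ± 0.48, limma adjusted p = 0.0192) rested on a group with a wide spread, 1 day 1 library lay within the day 0 range, the value without Day 0 replicate 1 was −2.04, and the call was lost without Day 0 replicate 2 or Day 1 replicate 2 or 3 and in the fit to those 2 groups alone.

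The other D cyclins took other courses. Ccnd3 fell from 8989 ± 2879 (SD, n = 3) on day 0 to 4438 ± 750.4 on day 3, a settled change of −0.98 ± 0.18 (SE, limma adjusted p = 0.000115) that was −1.23 without Day 0 replicate 1, and it rose again by 0.55 ± 0.18 (SE, limma adjusted p = 0.0175) in day 4 GFP-positive cells, a call that was lost without Day 3 replicate 2 or 3 or Day 4 GFP-positive replicate 1. Exon bases of Ccnd3 are shared with Bysl on the other strand, which reached 6263 in a library, and the strand setting of the counting is not given. Ccnd1 was highest on days 1 and 2 (10527 ± 819.9 and 11606 ± 532) and lowest in day 4 GFP-positive cells (4154 ± 183). None of its changes passed, and Day 0 replicate 1 held 2773 against 10040.0 and 8109 in its replicates. Thus the level of Ccnd2 rose on day 4 while that of Ccnd1 was lower than on day 3 in all 6 libraries of day 4, without passing the test.

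Cdk6, a kinase partner of the D cyclins (ENSMUSG00000040274, chr5:3341485-3531008, plus strand), separated the gates. Its counts were 453, 1638 and 1370.4 on day 0, 1107, 1079 and 1214 on day 1, 1419.6, 1443 and 1170.0 on day 2 and 941, 647 and 597 on day 3. In GFP-positive cells it fell to 118, 103 and 113 on day 4 and held 193, 163 and 233 on day 5. GFP-negative libraries had 518, 478 and 638 on day 4 and 792, 812 and 846 on day 5. The 6 GFP-positive libraries were below all 18 others. The fall from day 3 into the day 4 GFP-positive gate was −2.67 ± 0.30 (SE, limma adjusted p = 3.25e-07), and the gate differences were −2.27 ± 0.30 (SE, limma adjusted p = 9.61e-06) on day 4 and −2.07 ± 0.30 (SE, limma adjusted p = 2.67e-05) on day 5, all of them settled. From day 0 to day 5 GFP-positive cells the change was −2.37 ± 0.30 (SE, limma adjusted p = 6.1e-07), and the value without Day 0 replicate 1, itself the lowest day 0 library, was −2.94. The earlier fall from day 2 to day 3 (−0.91 ± 0.30, limma adjusted p = 0.0473) was lost when any of 5 of the 6 libraries was left out, under equal totals and without the filter. Cdk6 shares exon bases with Gm17590 on the other strand, which reached 0.75 at most in any library. Cdk4, the other partner of the D cyclins, was counted at 24461, 27074 and 33989 in GFP-negative and 38894, 34651 and 32424 in GFP-positive libraries of day 4, which overlap, and at 30246, 26066 and 25102 and 35211, 35144 and 38036 on day 5, which do not. The day 5 difference of 0.42 ± 0.13 (SE, limma adjusted p = 0.0253) was lost under quantile normalization (0.31) and under equal totals (0.32), as well as without Day 5 GFP-negative replicate 2 or 3 or Day 5 GFP-positive replicate 1 or 3.

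Ccne1, a cyclin that activates Cdk2 at the start of S phase (ENSMUSG00000002068, chr7:38097984-38107534, minus strand), declined after day 2. It had 8168, 12274 and 11981 on day 0, 11751, 12894 and 12429.6 on day 1, 11715, 11714 and 10862 on day 2 and 8297, 7638 and 7762 on day 3. On day 4 it had 5182, 5685 and 7178 in GFP-negative and 5902, 5694 and 5395 in GFP-positive cells, and on day 5 4579, 4079 and 4002 and 4565, 5622 and 4663. The gates overlapped on both days. The settled falls were −0.53 ± 0.14 (SE, limma adjusted p = 0.0114) from day 2 to day 3, −0.48 ± 0.14 (SE, limma adjusted p = 0.00781) from day 3 to day 4 GFP-positive cells and −1.11 ± 0.14 (SE, limma adjusted p = 3.9e-07) from day 0 to day 5 GFP-positive cells (−1.30 without Day 0 replicate 1). Ccne2, the other E cyclin, was 0.60 ± 0.19 higher at the end of that interval, a call lost without Day 0 replicate 1 (0.45) or Day 5 GFP-positive replicate 2. Exon bases of Ccne2 are shared with Ints8 on the other strand, which reached 7769 in a library, above every Ccne2 value. Cdk2 itself fell slightly by day 3 (−0.31 ± 0.10), a value of −0.43 without Day 0 replicate 1. That call was lost under both other scalings and without Day 0 replicate 2 or 3, and Cdk2 kept a mean between 3675 and 5154 in all 8 groups.

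**Figure D3:**
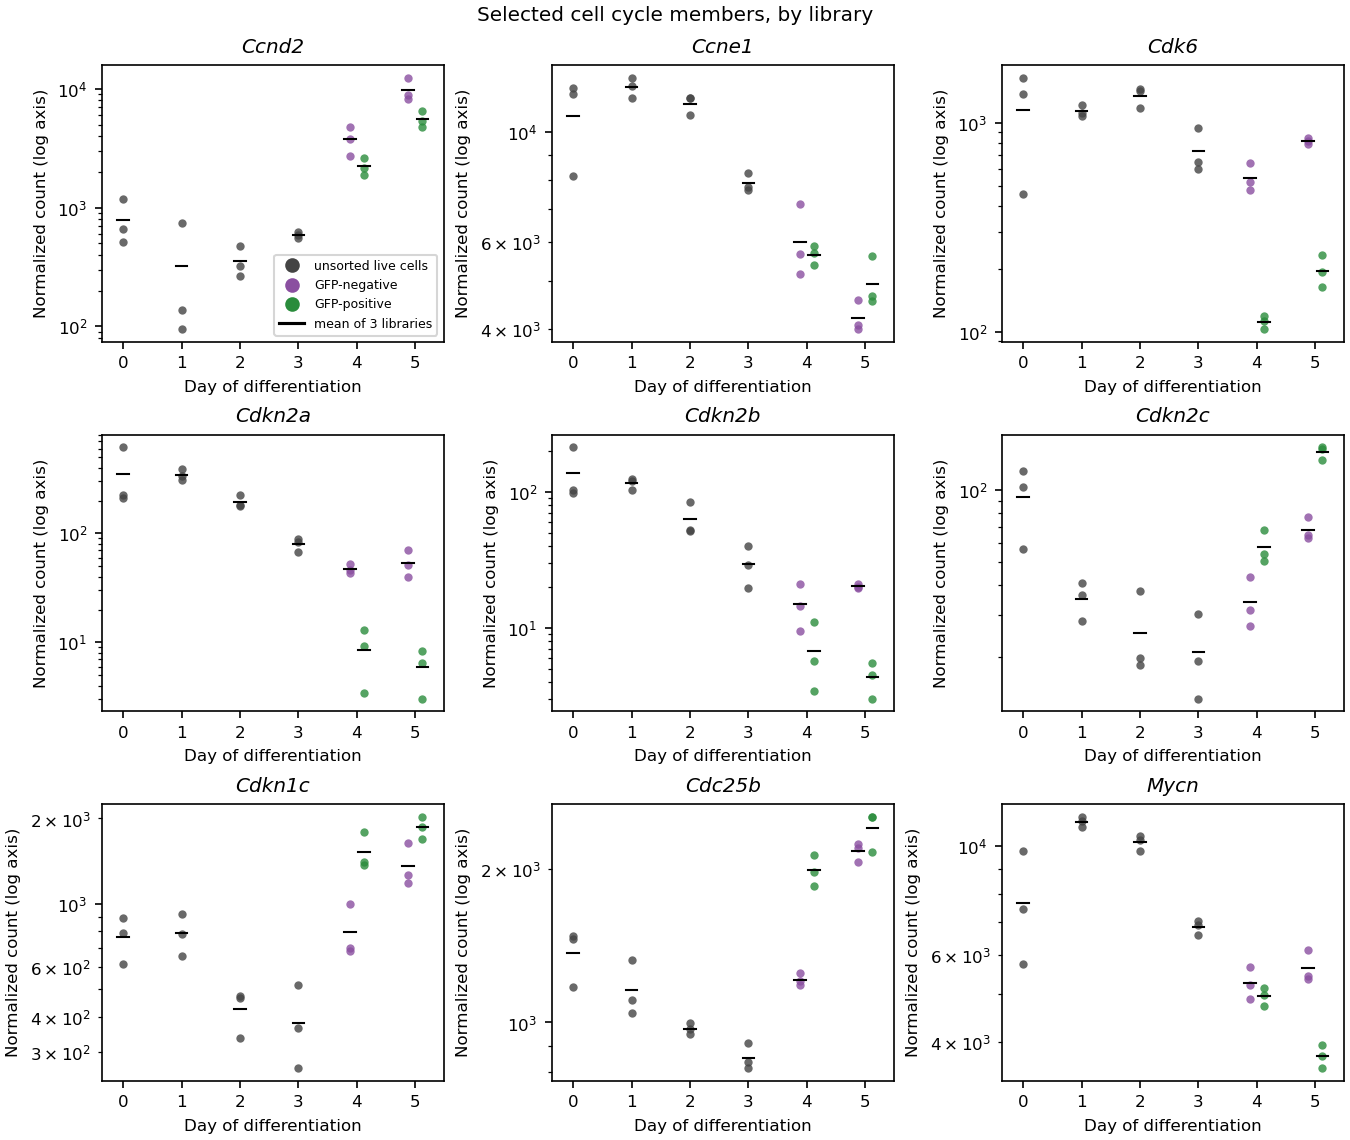
Normalized count (log axis) of 9 members in each of the 24 libraries against the day of differentiation. Grey points are cells not sorted on GFP, purple GFP-negative, green GFP-positive, and the black bar is the mean of 3 libraries. Cdk6, Cdkn2a and Cdkn2b show the green points of days 4 and 5 below all earlier libraries, whereas Ccnd2 shows both gates above them.

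Of the 6 CDK inhibitors, 5 fell from day 0 to day 3, and in day 4 GFP-positive cells 2 rose and 3 fell against day 3, where 43.6% and 37.9% of all genes passed in either direction. The same 5 passed as falls without Day 0 replicate 1. Cdkn2a (ENSMUSG00000044303, chr4:89274471-89294653, minus strand), a locus that encodes the Ink4 inhibitor p16 and, in another reading frame, the Arf protein, was at 618, 224 and 212 on day 0, 312, 392 and 334 on day 1, 227, 181 and 178 on day 2 and 89.6, 83.2 and 67.7 on day 3. It was at 46.1, 43.7 and 52.7 in GFP-negative and 9.22, 13 and 3.41 in GFP-positive libraries of day 4, and at 70.6, 40.1 and 51.5 and 6.52, 3.03 and 8.41 on day 5. The gates did not overlap on either day, and the counts per gene do not separate the p16 and Arf transcripts. Settled changes were −1.94 ± 0.40 (SE, limma adjusted p = 0.000499) from day 0 to day 3 (−1.44 without Day 0 replicate 1), −3.23 ± 0.40 (SE, limma adjusted p = 1.36e-06) from day 3 to day 4 GFP-positive cells, and between the gates −2.50 ± 0.40 (SE, limma adjusted p = 0.000107) on day 4 and −3.03 ± 0.40 (SE, limma adjusted p = 9.29e-06) on day 5. Over the whole course to day 5 GFP-positive cells it fell by 5.55 ± 0.40 on the log2 scale (limma adjusted p = 1.17e-10), and by 5.05 without Day 0 replicate 1. The step from day 2 to day 3 (−1.27 ± 0.40, limma adjusted p = 0.0378) was lost without any single library of its groups. Since 1 was added to each value before the logarithm, changes at these low levels are understated.

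Cdkn2b, the neighbouring Ink4 gene (ENSMUSG00000073802, chr4:89306299-89311039, minus strand), lies 11646 bases from Cdkn2a and went with it. It had 215, 98.7 and 103 on day 0, 103, 125 and 121 on day 1, 84.9, 52.4 and 51.8 on day 2 and 40.2, 29.3 and 19.8 on day 3. GFP-negative libraries had 21, 14.5 and 9.46 on day 4 and 21.2, 19.9 and 19.7 on day 5, and GFP-positive libraries 5.70, 11 and 3.44 and 5.49, 3.00 and 4.52. The gates overlapped on day 4 and were apart on day 5. The settled falls were −2.14 ± 0.38 (SE, limma adjusted p = 0.000104) to day 3 (−1.78 without Day 0 replicate 1), −2.06 ± 0.38 (SE, limma adjusted p = 0.00018) from there to day 4 GFP-positive cells, and −4.64 ± 0.38 (SE, limma adjusted p = 9.02e-10) from day 0 to day 5 GFP-positive cells (−4.28 without that library), and the day 5 gate difference was −2.02 ± 0.38 (SE, limma adjusted p = 0.000534). Across the 8 group means, log2 levels of the pair had a Pearson r of 0.986, a description over groups that share a cell line, culture and normalization.

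Cdkn2c, an Ink4 gene on the same chromosome (ENSMUSG00000028551, chr4:109660876-109667189, minus strand), turned upward after day 3. It fell first, from 119.9, 103 and 56.5 on day 0 to 28.1, 40.6 and 36.1 on day 1, 18.4, 37.6 and 19.7 on day 2 and 19.2, 30.2 and 13.3 on day 3. It then rose in the GFP-positive gate to 68.3, 53.8 and 50.3 on day 4 and 151, 149 and 133 on day 5, with 26.9, 31.4 and 43.1 and 64.5, 62.9 and 76.7 in the GFP-negative cells of those days. On day 5 all GFP-positive libraries exceeded all GFP-negative ones. The fall to day 3 was −2.11 ± 0.32 (SE, limma adjusted p = 1.58e-05) and −1.89 without Day 0 replicate 1, the rise to day 4 GFP-positive cells 1.48 ± 0.32 (SE, limma adjusted p = 0.000834) and the further rise to day 5 1.33 ± 0.32 (SE, limma adjusted p = 0.00847), all settled. The fall from day 0 to day 1 alone (−1.34 ± 0.32, limma adjusted p = 0.00903) was −1.12 without Day 0 replicate 1 and reached an adjusted p of 0.05 in limma without Day 1 replicate 1, and it was lost in the fit to those 2 groups alone. The day 5 gate difference (1.08 ± 0.32, limma adjusted p = 0.0224) was lost without Day 5 GFP-negative replicate 1 or 2 or Day 5 GFP-positive replicate 1 or 2, with adjusted p up to 0.0767. In GFP-negative cells the rise from day 4 to day 5 (1.01 ± 0.32, limma adjusted p = 0.0477) was lost under quantile normalization and without any of 5 of the 6 libraries compared. Cdkn2d, the last of the Ink4 genes, fell from 574 ± 168 on day 0 to 294 ± 68.2 on day 3 (−0.96 ± 0.20, limma adjusted p = 0.000433, and −0.73 without Day 0 replicate 1), and most of that fall stood between days 0 and 1, a step whose call was lost in the fit to those 2 groups alone.

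The Cip/Kip genes diverged at day 4. Cdkn1c (ENSMUSG00000037664, chr7:143458339-143461050, minus strand), which encodes p57 and is imprinted in the mouse, was at 788, 893 and 614 on day 0, 657, 922 and 784 on day 1, 476, 466 and 337 on day 2 and 516, 364 and 264 on day 3. It was at 699, 681 and 1000.2 in GFP-negative and 1786, 1403 and 1366 in GFP-positive libraries of day 4, and at 1634, 1181 and 1265 and 1862, 1695 and 2027 on day 5. Every GFP-positive library was above every library of days 0 to 3. It had first fallen to day 3 by 1.04 ± 0.22 on the log2 scale (limma adjusted p = 0.000607), and by 1.01 without Day 0 replicate 1. The rise from there was 2.03 ± 0.22 (SE, limma adjusted p = 1.93e-07) with GFP and 1.09 ± 0.22 (SE, limma adjusted p = 0.00121) without it, and the day 4 gate difference was 0.95 ± 0.22 (SE, limma adjusted p = 0.00408), all settled. The day 5 gate difference of 0.46 (95% interval 0.00 to 0.92) did not pass, after a rise of 0.78 ± 0.22 (SE, limma adjusted p = 0.0245) in the GFP-negative gate from day 4 that was lost without replicate 1 or 2 of day 4 or replicate 1 or 3 of day 5. Cdkn1b (ENSMUSG00000003031, chr6:134920401-134925513, plus strand), which encodes p27, had 2082, 3198 and 3170.5 on day 3 and 1229, 1255 and 1249.6 in day 4 GFP-positive cells, a settled fall of −1.15 ± 0.27 (SE, limma adjusted p = 0.00175). GFP-negative libraries of day 4 lay above them at 2132, 2418 and 1674, and the day 4 gate difference of −0.72 (95% interval −1.28 to −0.16) did not pass. By day 5 the gates overlapped at 1553, 2044 and 1679 and 1446, 1863 and 1732, and earlier libraries held 4304, 1933 and 1346 on day 0, 1887, 1502 and 1578 on day 1 and 1924, 1867 and 1663 on day 2.

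Of the 3 pocket proteins, which hold E2F factors in check, 2 rose from day 3 to day 4 GFP-positive cells, where 17.1% of all genes rose. Rbl1 (ENSMUSG00000027641, chr2:157145893-157204534, minus strand), which encodes p107, was at 898, 763 and 747 on day 0, 756, 791 and 776 on day 1, 828, 927 and 856 on day 2 and 989.9, 1365 and 1615 on day 3. GFP-negative libraries held 1865, 1966 and 1822 on day 4 and 1814, 2054 and 1895 on day 5, and GFP-positive libraries 2063, 2109 and 2262 and 2036, 2419 and 2107. All libraries of days 4 and 5 exceeded all earlier ones. The settled rises were 0.72 ± 0.13 (SE, limma adjusted p = 0.000136) from day 3 to day 4 GFP-positive cells and 1.45 ± 0.13 (SE, limma adjusted p = 3.98e-09) from day 0 to day 5 GFP-positive cells (1.53 without Day 0 replicate 1). Rb1 rose by 0.97 ± 0.22 (SE, limma adjusted p = 0.00104) from day 3, to 1461 ± 298, though its exons share bases with Lpar6 and Rcbtb2 on the other strand and the strand setting of the counting is not given in the sources used here. Rbl2 (ENSMUSG00000031666, chr8:91070057-91123844, plus strand), which encodes p130 and is known from resting cells, moved early and downward. It had 244, 506 and 414 on day 0, 377, 356 and 315 on day 1, 166, 264 and 221 on day 2 and 161, 150.3 and 209 on day 3, then 160.0, 236 and 174 and 196, 259.5 and 268 in GFP-negative and GFP-positive cells of day 4 and 232, 323 and 219.6 and 265, 266 and 199.5 on day 5. Its fall to day 3 was −1.11 ± 0.25 (SE, limma adjusted p = 0.000901), and −1.41 without Day 0 replicate 1. Rbl2 also shares exon bases with a gene on the other strand, Aktip, which reached 2075 in a library, above every Rbl2 value.

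Of the 5 E2F factors, E2f1 is a classical activator, as are E2f2 and E2f3, and E2f7 and E2f8 are repressors. E2f2 had 594, 548 and 679.6 on day 3, and on day 4 653, 679.8 and 689 in GFP-negative and 1166, 974 and 1110.2 in GFP-positive libraries, which did not overlap. Its rise from day 3 (0.84 ± 0.20, limma adjusted p = 0.00208) was settled, and its gate difference (0.68 ± 0.20, limma adjusted p = 0.0225) was lost without Day 4 GFP-negative replicate 1 or 2 or Day 4 GFP-positive replicate 1 or 3. E2f3 rose over the whole course, from 2492 ± 674 on day 0 to 4562 ± 114 in the last GFP-positive group, which lay below the 5207 ± 447 of the day before (0.91 ± 0.14, limma adjusted p = 8.44e-06, and 0.69 without Day 0 replicate 1). E2f1 and E2f2 passed as falls from day 0 to day 3 (−0.36 ± 0.13 and −0.50 ± 0.20), with overlapping groups. Without Day 0 replicate 1 they were −0.48 and −0.87, and both were lost under equal totals and without any of 4 of the 6 libraries compared. Neither E2f7 nor E2f8 passed the test in any comparison. Between day 3 and day 4 GFP-positive cells they differed by no more than 0.19 on the log2 scale.

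The 10 replication licensing members load and support the replicative helicase. Mcm2 to Mcm7 are its subunits, Cdc6 and Cdt1 load it, geminin (Gmnn) restrains Cdt1, and Pcna is the sliding clamp of the polymerases. Between day 3 and day 4 GFP-positive cells 0 of 10 passed the limma test (0 higher and 0 lower at an unadjusted p under 0.05), where 37.9% of all genes passed, with log2 fold changes from −0.19 to 0.17. Mcm6, for example, was at 21678, 19713 and 19984 on day 3 and 22354, 21792 and 22082 in day 4 GFP-positive libraries. Mcm2 was at 15342, 28760.1 and 23859 on day 0 and 19440.1, 16815 and 18161 in day 5 GFP-positive libraries, which overlap. Earlier, Mcm7 rose by 0.35 ± 0.10 (SE, limma adjusted p = 0.00896) from day 0 to day 3 (0.21 without Day 0 replicate 1), and from day 0 to day 5 GFP-positive cells Mcm3 (−0.33 ± 0.13), Mcm5 (−0.30 ± 0.11) and Gmnn (−0.54 ± 0.20) passed as falls, where 32.1% of all genes fell. Without Day 0 replicate 1 they were −0.32, −0.44 and −0.20. All 3 were lost under equal totals, Gmnn also without Day 0 replicate 1 or Day 5 GFP-positive replicate 1 or 3, Mcm3 without Day 0 replicate 2 or Day 5 GFP-positive replicate 3, and Mcm5 without Day 0 replicate 2 or 3 or Day 5 GFP-positive replicate 2. From day 4 to day 5, all 10 had lower mean log2 levels in both gates, with a median of −0.13 with GFP and −0.29 without it, where the median of all genes was 0.00 and 0.01. In the GFP-negative cells Mcm4 (−0.37 ± 0.11, limma adjusted p = 0.0412) and Mcm6 (−0.30 ± 0.09, limma adjusted p = 0.0426) passed, but neither did so under quantile normalization (adjusted p = 0.208 and 0.36 in limma), and both were lost without any of at least 5 of the 6 libraries. Pcna counts share sequence with its copy Pcna-ps2, which held 2216 to 9562, and Mcm7 shares exon bases with Cops6 and Ap4m1.

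The promoters of the licensing and mitosis genes are known to carry distinct elements, E2F sites in S phase genes and the cell cycle genes homology region (CHR), often with CCAAT boxes, in genes of G2 and mitosis. RefSeq promoter windows (GRCm38.p6, 250 bases before to 50 after a start) matched 38 of the 49 members. They were searched on both strands for E2F letters (TTCCCGC or its variants with other middle letters, namely TTGGCGC and also TTCGCGC and finally TTGCCGC), CHR letters (TTTGAA or TTCGAA) and CCAAT, which can share letters with an E2F match in reverse, as in 3 of the 44 windows of members. E2F letters occurred in 6 of 8 licensing genes with a window, in 1 of 6 mitosis genes and in 10.9% of all 27025 genes. CHR letters occurred in 2 of 8, 6 of 6 and 21.7%. CCAAT was less distinct, in 6 of 8, 6 of 6 and 41.1%. Mcm2, also a helicase subunit gene, had a CHR match and no E2F match. The 170 bases before the start of 2 helicase subunit genes are shown in gene orientation because their letters contrast with those of the mitotic genes below, with E2F and CCAAT matches in capitals.
Mcm5 (chr8:75109339-75109508, plus strand): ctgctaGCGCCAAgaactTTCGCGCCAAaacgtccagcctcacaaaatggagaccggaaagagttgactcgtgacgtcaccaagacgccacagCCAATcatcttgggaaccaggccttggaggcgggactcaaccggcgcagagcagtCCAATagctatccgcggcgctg
Mcm6 (chr1:128359706-128359875, minus strand): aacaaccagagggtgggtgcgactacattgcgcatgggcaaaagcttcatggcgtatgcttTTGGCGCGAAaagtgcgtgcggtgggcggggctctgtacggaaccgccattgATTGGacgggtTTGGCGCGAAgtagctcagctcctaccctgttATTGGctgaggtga
The mitotic genes show the CHR letters within the same distance of the start, again in capitals together with CCAAT and, in Cdk1 and Mki67, an E2F match.
Cdk1 (chr10:69352913-69353082, minus strand): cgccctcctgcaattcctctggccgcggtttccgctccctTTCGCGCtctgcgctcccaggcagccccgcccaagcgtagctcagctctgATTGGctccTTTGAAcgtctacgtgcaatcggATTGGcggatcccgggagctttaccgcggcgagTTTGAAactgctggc
Cdc20 (chr4:118437344-118437513, minus strand): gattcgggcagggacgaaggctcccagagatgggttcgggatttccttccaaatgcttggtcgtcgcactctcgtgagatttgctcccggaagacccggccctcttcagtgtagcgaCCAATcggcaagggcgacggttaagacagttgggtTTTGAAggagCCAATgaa
Top2a (chr11:99024190-99024359, minus strand): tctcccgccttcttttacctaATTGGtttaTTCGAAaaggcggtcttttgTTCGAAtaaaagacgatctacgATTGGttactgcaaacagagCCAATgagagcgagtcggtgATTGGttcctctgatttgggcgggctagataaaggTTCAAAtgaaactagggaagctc
Mki67 (chr7:135716380-135716549, minus strand): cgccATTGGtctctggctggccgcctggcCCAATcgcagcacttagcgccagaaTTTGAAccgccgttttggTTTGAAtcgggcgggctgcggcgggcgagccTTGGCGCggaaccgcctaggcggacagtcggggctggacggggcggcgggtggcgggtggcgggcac
The window of Cdk6, which fell most among the kinases, held none of the letters, and neither did those of Cdk4, Ccne1 and E2f1. The Cdk6 window lies inside the gene span given above, not at its outer end.
Cdk6 (chr5:3343723-3343892, plus strand): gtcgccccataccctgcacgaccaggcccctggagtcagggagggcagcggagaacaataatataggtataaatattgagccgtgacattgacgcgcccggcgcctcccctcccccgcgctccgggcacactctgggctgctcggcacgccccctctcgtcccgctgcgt
Among 5 genes of the D and E cyclins and their kinases that had a window, 1 held E2F letters and 0 CHR letters. The same contrast stood in the wider lists, with E2F letters in 27 of 44 DNA replication genes and in 7 of 45 mitosis genes, and CHR letters in 8 of 44 and 32 of 45. CCAAT was in 26 of 44 and 30 of 45. A match of letters is a description of the sequence and does not show that a factor binds.

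**Figure D4:**
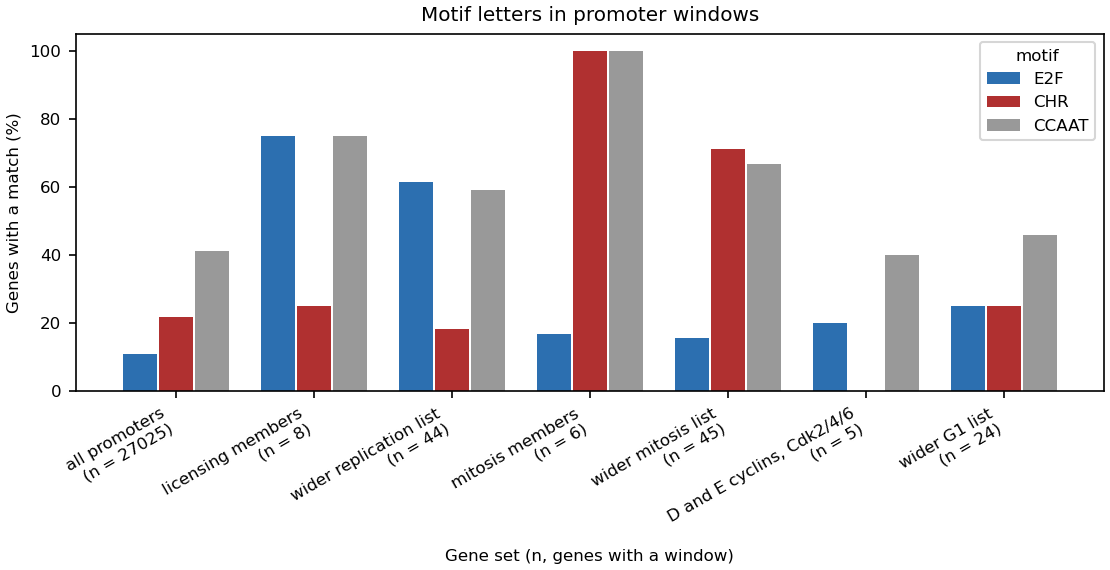
Share of genes (%, from 0) with a match to E2F, CHR or CCAAT letters on either strand of a promoter window, for all promoters and for member and wider gene sets, with the number of genes that had a window. E2F bars are tall in the replication sets and CHR bars in the mitosis sets, while the D and E cyclin set has no CHR bar.

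The A and B cyclins with Cdk1, which drive S phase and entry into mitosis, and the mitosis group, with the spindle and checkpoint genes Aurka, Aurkb, Plk1, Bub1 and Cdc20, topoisomerase Top2a and the proliferation marker Mki67, moved in both directions. Mki67 (ENSMUSG00000031004, chr7:135689784-135716361, minus strand) was at 6100.1, 14679.7 and 15063 on day 0, 11770.0, 14071 and 11660.3 on day 1, 11329, 12866 and 12251 on day 2 and 13523, 14637 and 16907 on day 3. It had 18134, 16970.2 and 18858 in GFP-negative and 19691, 21588 and 21563 in GFP-positive cells of day 4, and 17609, 19182 and 18846 and 21557, 24989 and 20808 on day 5. Its rise by the day 5 GFP-positive group was 1.02 ± 0.22 (SE, limma adjusted p = 0.000323), of which 0.59 remained without Day 0 replicate 1, the lowest of all 24 libraries. It missed the test when only these groups were fitted (limma adjusted p = 0.0514). Aurkb, a kinase of the chromosomal passenger complex, rose by 0.47 ± 0.09 (SE, limma adjusted p = 7.45e-05) over the same interval (0.42 without that library), to 5685 ± 481.

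Others of these roles declined over that interval. Ccnb1, the main mitotic cyclin, was at 20516, 15826 and 17337 on day 0 and 11543, 10588 and 11306 in day 5 GFP-positive cells (−0.68 ± 0.10, limma adjusted p = 3.22e-06). Cdc20, an activator of the anaphase-promoting complex, fell by 0.71 ± 0.10 on the log2 scale (limma adjusted p = 4.08e-06) and Ccna2 by 0.49 ± 0.10 (limma adjusted p = 0.000309). These 3 falls were settled, and without Day 0 replicate 1 they were −0.57, −0.65 and −0.38. By day 3, Ccna2 (−0.38 ± 0.10), Ccnb1 (−0.24 ± 0.10) and Cdk1 (−0.55 ± 0.20) had already passed as falls, all lost under quantile normalization, that of Ccnb1 also without any of 5 of the 6 libraries compared and that of Cdk1 without any of 4. Day 0 replicate 1 was among these in both, and without it the 3 values were −0.27, −0.14 and −0.28. Top2a fell mainly before day 3, from 59452, 40269 and 37658 on day 0 to 22887, 30188 and 30230.1 on day 3 (−0.70 ± 0.14, limma adjusted p = 0.000386), and the change was −0.50 without Day 0 replicate 1.

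The Cdc25 phosphatases remove inhibitory phosphates from CDKs. Cdc25b (ENSMUSG00000027330, chr2:131186949-131198497, plus strand), which acts at the entry into mitosis, had 6 settled results, more than any other member. It was at 1173, 1479 and 1462 on day 0, 1043, 1328 and 1107 on day 1, 999, 948 and 969.6 on day 2 and 909.5, 834 and 813 on day 3. In GFP-negative cells it had 1206, 1251 and 1183 on day 4 and 2201, 2065 and 2248 on day 5, and in GFP-positive cells 1854, 2138 and 1980.5 and 2532, 2165 and 2537. The gates were apart on day 4 and overlapped on day 5. It fell by 0.68 ± 0.11 on the log2 scale to day 3 (by 0.79 without Day 0 replicate 1), then rose by 1.22 ± 0.11 (SE, limma adjusted p = 1.11e-08) with GFP and by 0.51 ± 0.11 (SE, limma adjusted p = 0.00189) without it, with a day 4 gate difference of 0.71 ± 0.11 (SE, limma adjusted p = 5.54e-05). The GFP-negative cells rose by a further 0.84 ± 0.11 (SE, limma adjusted p = 2.27e-05) to day 5. Cdc25c rose by 0.58 ± 0.16 (SE, limma adjusted p = 0.00581) from day 3 to day 4 GFP-positive cells, and Cdc25a, which acts earlier in the cycle, did not pass in any comparison.

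Mycn and Myc are growth-promoting transcription factors that can stand in for each other in many tissues, and Mycn is the form typical of neural progenitors. Mycn (ENSMUSG00000037169, chr12:12936093-12941914, minus strand) was at 5759, 9782 and 7449 on day 0, 11469, 11243 and 10924 on day 1, 10492, 10287 and 9768 on day 2 and 6918, 7049 and 6605 on day 3. GFP-negative libraries had 4894, 5215 and 5679 on day 4 and 6153, 5354 and 5439.7 on day 5, and GFP-positive libraries 4974, 5147 and 4737 and 3741, 3947 and 3533. The gates overlapped on day 4, and on day 5 all GFP-positive libraries were lower. The settled falls were −0.57 ± 0.13 (SE, limma adjusted p = 0.00441) from day 2 to day 3, −0.47 ± 0.13 (SE, limma adjusted p = 0.00556) from day 3 to day 4 GFP-positive cells, −0.59 ± 0.13 (SE, limma adjusted p = 0.00181) between the gates on day 5 and −1.003 ± 0.13 (SE, limma adjusted p = 6.12e-07) from day 0 to the last GFP-positive group (−1.19 without Day 0 replicate 1). Myc took a different path in the same cells. It had 1315, 1479 and 1369 on day 3, 2001, 2088 and 2623 in GFP-negative and 1392, 1307 and 1297 in GFP-positive cells of day 4, and 3539, 2669 and 2669 and 2583, 3145 and 2270.3 on day 5. It rose by 0.99 ± 0.23 (SE, limma adjusted p = 0.00635) from day 4 to day 5 within the GFP-positive gate, a settled change. Its day 4 gate difference (−0.74 ± 0.23, limma adjusted p = 0.0309) was lost without any of 5 of the 6 libraries compared, with adjusted p up to 0.13.

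The GFP-positive and GFP-negative cells of one day, sorted from the same organoids, were compared next without pairing. On day 4, 3 members were higher and 3 lower in GFP-positive cells, where 4.43% of all genes were higher and 11.3% lower (15.7% in all). The higher members were Cdkn1c, E2f2 and Cdc25b and the lower ones Cdk6, Cdkn2a and Myc. On day 5, 4 were higher (Cdk4, Cdkn2c, Aurka and Aurkb) and 4 lower (Cdk6, Cdkn2a, Cdkn2b and Mycn), where 3.78% of all genes were higher and 12.3% lower (16.0% in all). Each of the 4 higher calls on day 5 was lost when any of 4 of the 6 libraries was left out, whereas Cdk6, Cdkn2a, Cdkn2b and Mycn were settled. The day 5 total of 8 was 4 without Day 5 GFP-negative replicate 2, 5 without Day 5 GFP-negative replicate 3 or Day 5 GFP-positive replicate 1 or 2, and 17 without Day 0 replicate 1 (22.6% of all genes). Scaling mattered here too, with 2 higher and 5 lower under quantile normalization and 1 and 4 under equal totals. The shift that quantile normalization made to a gene's day 5 gate difference was 0.18 on the log2 scale in the median over all genes.

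Whether a gate difference itself changed from day 4 to day 5 was tested as an interaction. In limma 0 of 49 members passed, with 3 at an unadjusted p under 0.05 (Ccna2, Cdc25b and Mycn), and 1.10% of all genes passed. The gate differences of Cdk6 (−2.27 and −2.07) and Cdkn2a (−2.50 and −3.03) cannot be ranked by day, and the change of −0.56 for Cdc25b had a 95% interval of −0.88 to −0.24. Without Day 0 replicate 1 the count was 2, where 3.11% of all genes passed.

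**Figure D5:**
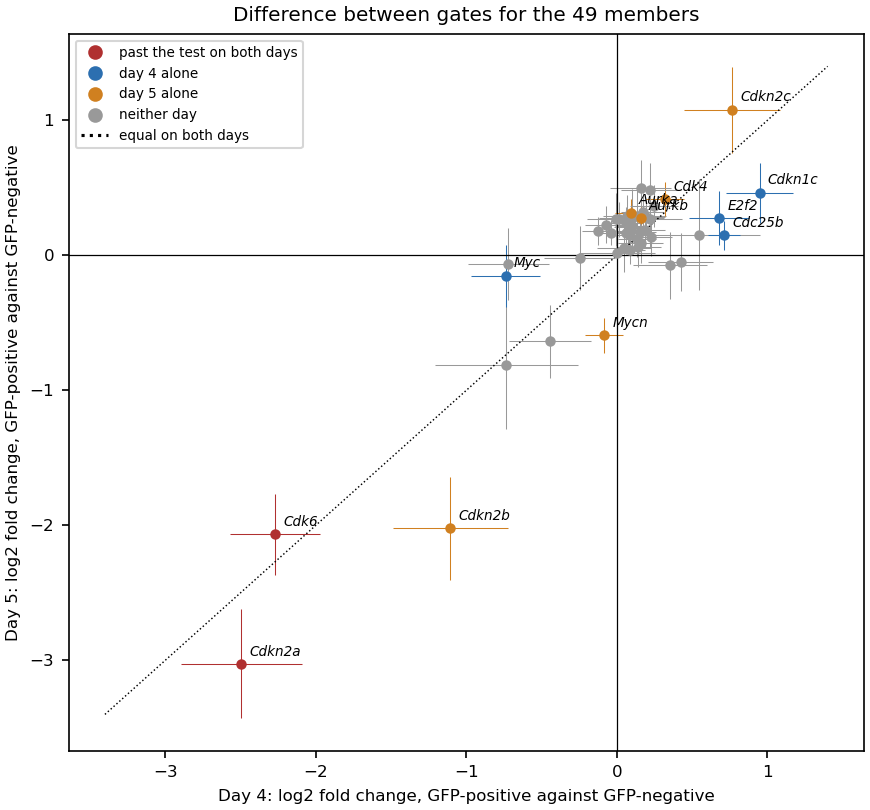
Log2 fold change from the GFP-negative to the GFP-positive gate, day 4 (horizontal) and day 5 (vertical), for the 49 members, with standard errors as bars and the dotted line where both days are equal. Members past the test on a day are coloured and named. Cdk6 and Cdkn2a stand at −2.07 or below on both axes, and most members cluster near 0 on both.

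Genes of the same machinery outside the 49 were described from wider lists of 30 genes of G1 and G1/S control, 55 of DNA replication and 55 of mitosis and G2/M, all of which passed the filter. By day 3, 1 mitosis gene had risen and 25 had fallen since day 0, with a median of −0.28 against −0.03 over all genes, where 21.1% of all genes rose and 22.6% fell (43.6% in either direction). The largest falls were in Mybl2, a transcription factor of the cell cycle known to be abundant in stem cells (−1.21 ± 0.18), and Kif20b, a kinesin (−1.14 ± 0.29), and the single rise was in Ncapd2, a condensin subunit (0.36 ± 0.10). These values were −1.56, −0.65 and 0.26 without Day 0 replicate 1, and 3 rose and 29 fell, where 50.1% of all genes passed. Under quantile normalization 1 rose and 20 fell. Of the replication list 8 of 55 rose and 11 fell, with Rfc3 at 0.67 ± 0.11, Mcm9 at 0.51 ± 0.17, Tk1 at −0.58 ± 0.11 and Cdc45 at −0.58 ± 0.09. These values were 0.85, 0.37, −0.54 and −0.57 without Day 0 replicate 1, the call of Mcm9 was lost (limma adjusted p = 0.0943), and 11 rose and 15 fell. Of the G1 list 5 of 30 rose and 6 fell, with rises in Cables1 (1.79 ± 0.14) and the kinase gene Cdk14 (1.49 ± 0.18) and falls in Mxd3, a Max partner (−1.66 ± 0.17), and Cdkn1a, the Cip/Kip inhibitor p21 (−1.30 ± 0.15). These values were 1.90, 1.32, −1.49 and −1.21 without Day 0 replicate 1, and 7 rose and 9 fell.

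In day 4 GFP-positive cells the lists moved both ways against day 3, where 37.9% of all genes passed (17.1% higher and 20.9% lower). Of 55 DNA replication genes 10 rose and 2 fell, led by Gins3 (0.69 ± 0.11) and Cdc45 (0.46 ± 0.09) with Hells (−0.53 ± 0.19) and Rfc5 (−0.24 ± 0.09) lower. Of 55 mitosis genes 10 rose and 2 fell, with Ndc80, a kinetochore subunit (0.59 ± 0.14), and Foxm1, an activator of mitotic genes (0.58 ± 0.21), higher, and Mybl2 (−1.71 ± 0.18) and securin, Pttg1 (−0.57 ± 0.17), lower. Of 30 G1 genes 5 rose and 4 fell, with the largest rises in Mxd4, a Max partner that opposes Myc (2.02 ± 0.17), and Cdk14 (1.18 ± 0.18), and falls in Tfdp2, a dimer partner of E2F factors (−0.56 ± 0.09), and Max itself (−0.44 ± 0.10).

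By day 5 GFP-positive cells, 61.4% of all genes had passed against day 0, and 64.7% without Day 0 replicate 1. In mitosis 8 had risen and 18 had fallen, with Foxm1 (1.16 ± 0.21) and the kinetochore gene Nuf2 (0.84 ± 0.14) higher and Mybl2 (−2.89 ± 0.18) and Kif20b (−1.06 ± 0.29) lower. These values were 0.73, 1.03, −3.24 and −0.56 without Day 0 replicate 1, and 14 had risen and 20 fallen. In DNA replication 10 had risen and 15 had fallen, with the clamp loader gene Rfc3 (0.97 ± 0.11) and the kinase gene Cdc7 (0.80 ± 0.11) higher and the origin recognition gene Orc1 (−0.995 ± 0.13) and the uracil glycosylase gene Ung (−0.96 ± 0.14) lower. These values were 1.15, 0.74, −1.19 and −1.15 without Day 0 replicate 1, and 14 had risen and 16 fallen. In the G1 list 7 had risen and 11 had fallen, with Cdk14 (2.83 ± 0.18) and Mxd4 (1.74 ± 0.17) higher and Mxd3 (−1.74 ± 0.17) and Cdkn1a (−1.02 ± 0.15) lower. These values were 2.67, 1.94, −1.57 and −0.93 without Day 0 replicate 1, and 8 had risen and 10 fallen.

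Between the gates the lists were compared on both days. On day 4, 48 of 55 DNA replication genes were positive (median 0.15), 45 of 55 mitosis genes (0.13) and 17 of 30 G1 genes (0.02), where 50.7% of all genes were positive and their median was 0.0067. Under quantile normalization, which moved the day 4 gate differences of all genes by 0.12 in the median, these numbers were 46, 43 and 15, with medians of 0.13, 0.10 and 0.0053 against 0.06 over all genes. With the authors' scaling, 3, 2 and 1 were higher and 0, 1 and 4 lower on day 4 by limma (0 replication genes lower at an unadjusted p under 0.05), where 4.43% of all genes were higher and 11.3% lower. On day 5, in DNA replication 10 genes were higher and 0 lower in limma, with 50 of 55 positive and a median of 0.24, and in mitosis 11 were higher and 0 lower, with 52 of 55 positive and the same median, where 49.6% of all genes were positive, their median was −0.00169, and 3.78% were higher and 12.3% lower. At an unadjusted p under 0.05 the lower genes numbered 0 and 1. Among the higher genes were Prim1 (0.43 ± 0.14), which encodes a primase subunit, Ndc80 (0.54 ± 0.14) and the chromatin protein gene Hmgb2 (0.50 ± 0.11). The size of this lean on day 5 depended on scaling. Under quantile normalization 2 and 5 genes were higher, with medians of 0.15 and 0.14 against 0.08 over all genes, and under equal totals 1 and 3, with medians of 0.15 in both against −0.09. All 10 licensing members were also positive, with a median of 0.21, though 0 passed in limma (2 at an unadjusted p under 0.05), as were all 7 of the mitosis group. Of the G1 list, 25 of 30 were positive with a median of 0.14, Cdkn1a was lower in GFP-positive cells (−0.82 ± 0.15), and Mxd4 (0.57 ± 0.17) and Tfdp2 (0.45 ± 0.09) were higher.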

How the data were processed

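RNA-seq was analysed for 24 libraries (3 per group). Per the labels and the study's methods, the authors quantified reads with kallisto 0.43.1 on mm10 and deposited DESeq2-normalized signal per gene, a table of estimates divided by size factors; its columns of the authors' own calls were not used. Values were not whole reads, so no count model was run. Here log2(normalized count + 1) of 21005 genes (a value of 10 or more in 3 or more libraries) was fitted with limma 3.58.1 (R 4.3.3) over all 8 groups (16 residual degrees of freedom), with the trend of variance on mean level, and p was adjusted per comparison by Benjamini-Hochberg; rose and fell mean adjusted p under 0.05. No pair of libraries was identical. The labels call the samples triplicates, so p-values measure the spread between such samples. Members and lists were chosen with earlier results of these data known. Members past the test beyond 1 on the log2 scale without overlap are given in every library. Of the wider lists, up to 2 rises and 2 falls per list are named in the comparisons described; 1 result is not reported here. Alternatives were pseudocounts of 0.5 and 5, filters of 0 and 50, quantile normalization, equal totals, no trend, a replicate block, only the groups compared, the study's thresholds and leaving out each library. The smallest steps of each library put its depth at its total divided by 0.8 to 1.39 (the worth of 1 read). The code was tested on simulated data. Promoter sequences are RefSeq's (GRCm38.p6); 11 members had none here.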

Additional observations from a re-analysis of the deposited data

How the results depend on the processing

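None of the 112 results past the test changed direction under any alternative. Of them, pseudocounts of 0.5 and 5 kept 111 and 112, a filter of 50 kept 112, no filter 90, quantile normalization 92, equal totals 89, no trend 100, and fitting only the groups compared 78. Leaving out 1 library kept 575 of 732. Without a filter, which tests more genes, day 3 against day 2 had 4 members past the test (6.75% of all genes) and day 4 GFP-negative against day 3 had 5 (9.14%). Between the gates on day 5 there were 5 (8.52%), with 3 from day 4 to day 5 in GFP-negative cells (5.05%). Equal totals gave 5 between the gates on day 5 (15.9%), and no trend gave 5 for day 4 GFP-negative against day 3 (18.2%). Quantile normalization gave 1 for the change of the gate difference (1.14%). The study's thresholds (adjusted p under 0.001, absolute log2 fold change above 1.5) left 0 for days 1 against 0, 2 against 1, 3 against 2 and for both steps from day 4 to day 5, 3 for day 3 against day 0, 4 for day 4 GFP-positive and 1 for GFP-negative against day 3, 2 and 3 between the gates on days 4 and 5, and 4 for day 5 GFP-positive against day 0. Fitting only the groups compared gave 0 for day 1 against day 0 (0.167% of all genes) and 10 for day 2 against day 1 (29.1%). It gave 13 for day 3 against day 2 (20.7%), 8 for day 3 against day 0 (23.9%) and 13 between the gates on day 5 (18.7%). For day 5 against day 4 GFP-positive it gave 8 (13.6%), and for day 5 GFP-positive against day 0 it gave 16 (47.1%). The change of the gate difference had 2 (3.23%).

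Leaving out 1 library at a time, the counts ranged from 3 to 12 (day 1 against day 0), 0 to 7 (day 2 against day 1), 3 to 16 (day 3 against day 2), 18 to 28 (day 3 against day 0), 16 to 23 and 4 to 16 (day 4 GFP-positive and GFP-negative against day 3), 4 to 9 and 4 to 17 (gates on days 4 and 5), 2 to 6 and 1 to 20 (day 5 against day 4 in GFP-positive and GFP-negative cells), 22 to 32 (day 5 GFP-positive against day 0) and 0 to 2 (change of the gate difference). No pairing by replicate number showed in the values: deviations of same-numbered libraries correlated at −0.000542 in the mean over 28 pairs of groups, and 1 pair of groups had every correlation over 0.1. Between the gates the mean was −0.062 on day 4 and 0.027 on day 5. With 3 libraries per group, these values cannot show that gates sorted from the same organoids were unpaired, and the main fit did not pair them. With the replicate block the counts were 4, 3, 7, 21, 19, 8, 7, 8, 2, 5, 26 and 0 in the order just given, and 107 of the 112 results kept their call.

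Under quantile normalization and under equal totals the split of rises and falls moved by over 10 percentage points in several comparisons: 5 and 13 for day 3 against day 0 and 8 and 1 for day 4 GFP-negative against day 3 under the first, 3 and 3 for day 3 against day 2 and 5 and 0 from day 4 to day 5 in GFP-negative cells under the second. The cause was not tested. Overlapping genes on opposite strands, which 19 members have, could not be separated.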
